A study of Homo sapiens with 8 samples.

Results

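Messenger RNA levels of 47 genes that copy DNA or supply its building blocks were followed in the human leukemia cell line MOLM13, which was established from acute myeloid leukemia. The genes were chosen by name as S phase genes outside the MCM2-7 helicase complex. Earlier results of these data were known when they were chosen, so the set is not independent of the data. All 47 have a row among the 35369 genes listed with a symbol, and all 47 passed the filter on low values that left 13030 genes for testing. The libraries fall into 4 groups of 2: cells with a knockdown of IGF2BP2, made with an sh construct according to the titles; cells with an IGF2BP2 rescue; cells with a rescue by a mutant labelled IGF2PB2-mut; and control cells labelled WT. IGF2BP2 encodes a protein that binds and stabilises messenger RNA, including RNA that carries N6-methyladenosine. The cells were infected with virus and selected with puromycin where needed, and poly(A) RNA was sequenced. The hairpin, the mutation, the promoters of the constructs and whether control cells carried an empty vector go unstated in the sources used here. Nor do the labels say that the 2 libraries of a group came from separate cultures, so a p-value here reflects the spread between these libraries alone, and that spread may be technical.

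Before S phase, origins are licensed by the origin recognition complex with CDC6 and CDT1, and the kinase of CDC7 and DBF4 then fires them. DNA polymerase alpha with primase starts each strand, the replication factor C complex loads the sliding clamp PCNA, and polymerases delta and epsilon extend the strands while replication protein A covers single-stranded DNA. Ribonucleotide reductase and thymidylate synthase keep the deoxynucleotide pools filled, and most genes of this set are textbook targets of E2F transcription factors, whose activity peaks as cells enter S phase.

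The promoters of a few genes that carry the results are shown for orientation, with the 250 bases before the RefSeq start of transcription (GRCh38.p14), read 5′ to 3′ on the strand of the gene. The first 6 were picked by smallest adjusted p among genes that fell in knockdown against control. Each also had to hold a word of the E2F type before the start, in capitals. That all 6 fell and hold such a word is thus no result. RPA1, MCM10, POLD2, USP1 and CHAF1B, which carry results as well, have no such word in the window and are not printed. RFC3 (chr13:33817899-33818148, plus strand) and CDCA7 (chr2:173354622-173354871, plus strand) are 2 of the genes that fell in knockdown, and both calls held in every setting tried. TYMS (chr18:657403-657652, plus strand) and POLA2 (chr11:65261712-65261961, plus strand) were also higher in rescue than in knockdown. PCNA (chr20:5126623-5126872, minus strand) encodes the clamp itself, and HELLS (chr10:94545538-94545787, plus strand) had the smallest adjusted p between the rescue groups. RRM2 (chr2:10122489-10122738, plus strand) had the highest log2 change of the 47 in knockdown against control, one that did not pass the test, and its capitals mark CCAAT boxes.
RFC3: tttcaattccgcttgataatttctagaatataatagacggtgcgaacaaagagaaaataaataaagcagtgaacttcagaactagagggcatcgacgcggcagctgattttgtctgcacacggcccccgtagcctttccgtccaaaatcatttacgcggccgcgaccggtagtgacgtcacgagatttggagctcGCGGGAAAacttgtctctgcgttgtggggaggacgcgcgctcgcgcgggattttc
CDCA7: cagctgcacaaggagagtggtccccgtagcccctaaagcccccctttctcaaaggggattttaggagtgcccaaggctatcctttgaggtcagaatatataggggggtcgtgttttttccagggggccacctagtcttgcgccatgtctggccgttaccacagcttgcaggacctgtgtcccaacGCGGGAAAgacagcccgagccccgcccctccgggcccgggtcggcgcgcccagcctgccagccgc
TYMS: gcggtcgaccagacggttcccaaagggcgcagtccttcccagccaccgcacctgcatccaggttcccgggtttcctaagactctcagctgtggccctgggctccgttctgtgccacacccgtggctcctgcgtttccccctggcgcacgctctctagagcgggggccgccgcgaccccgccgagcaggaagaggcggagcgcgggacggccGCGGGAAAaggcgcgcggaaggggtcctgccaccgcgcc
POLA2: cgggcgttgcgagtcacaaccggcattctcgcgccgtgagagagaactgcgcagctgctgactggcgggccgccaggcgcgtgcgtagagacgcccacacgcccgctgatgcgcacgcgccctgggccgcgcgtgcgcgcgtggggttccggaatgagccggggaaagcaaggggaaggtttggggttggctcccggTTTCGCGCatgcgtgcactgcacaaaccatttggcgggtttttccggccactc
PCNA: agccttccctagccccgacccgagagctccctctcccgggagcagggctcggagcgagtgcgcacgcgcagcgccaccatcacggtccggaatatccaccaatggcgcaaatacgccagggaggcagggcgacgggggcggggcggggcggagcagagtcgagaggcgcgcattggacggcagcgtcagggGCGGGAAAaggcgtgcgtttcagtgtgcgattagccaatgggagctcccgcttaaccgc
HELLS: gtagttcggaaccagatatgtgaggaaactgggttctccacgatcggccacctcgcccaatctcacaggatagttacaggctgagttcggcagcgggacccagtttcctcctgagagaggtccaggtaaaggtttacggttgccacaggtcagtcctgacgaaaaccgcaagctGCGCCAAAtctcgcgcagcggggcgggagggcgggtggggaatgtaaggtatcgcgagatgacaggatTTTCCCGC
RRM2: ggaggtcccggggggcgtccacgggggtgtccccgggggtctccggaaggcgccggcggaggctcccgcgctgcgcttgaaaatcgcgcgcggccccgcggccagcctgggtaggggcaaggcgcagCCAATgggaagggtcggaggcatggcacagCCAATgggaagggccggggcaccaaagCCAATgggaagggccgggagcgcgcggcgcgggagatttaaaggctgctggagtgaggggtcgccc
The E2F words searched were TTTCCCGC, TTTGGCGC, TTTCGCGC and TTTGCCGC, on both strands, in windows of 300 bases that run from 250 before to 50 after the start. RefSeq promoters were matched for 42 of the 47 genes, and 14 of these 42 (33.3%) held at least 1 such word. Of all 27305 RefSeq promoters 908 (3.33%) did, and of the 14354 with a symbol among the listed genes 625 (4.35%). Of the 15 matches in the 42 promoters, 13 lay within 80 bases before the start or after it. Positions were not counted in other promoters, so this is no trait of these genes. The CCAAT box, CCAAT on either strand, was found in 52.4% of the 42 promoters, 35.7% of all and 36.4% of the 14354. A cell cycle homology element, TTTGAA or TTCGAA on either strand, was found in 7.14%, 16.6% and 13.2% in that order. No base of a member's promoter was shared by matches of different motifs. In RRM2 no E2F word was found in the window. A match is a description of the letters and no evidence of binding.

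The library values are on a log2 scale and were normalized by the authors, but not per length, so levels are compared between groups and not between genes. The depth of the libraries is unknown. IGF2BP2 itself had log2 values of 10.24 and 10.25 in knockdown, 11.36 and 11.13 in rescue, 11.03 and 10.68 in mutant rescue, and 10.94 and 10.89 in control. Both knockdown libraries lay below all others, and these gene values do not part the endogenous transcript from that of a construct. All 12 markers of myeloid leukemia cells passed the filter. Their summed level was 11800 to 12200 ppm of the linear total in knockdown, 8720 to 10000 ppm in rescue, 17100 to 24600 ppm in mutant rescue and 3990 to 4330 ppm in control, so it moved with the groups, and its part in the results was not tested. Markers of other cell types were near absence, with 0 of 4 T cell, 1 of 4 B cell (PAX5), 0 of 5 erythroid, 3 of 5 epithelial (at most 12.4 ppm in sum) and 0 of 5 fibroblast markers passing, and CD3E, MS4A1, HBA1, HBA2, KRT19 and COL3A1 at 0 in all libraries. The 7 mitochondrial transcripts checked summed to 6730 to 6900 ppm in knockdown, 4600 to 4810 in rescue, 6390 to 8200 in mutant rescue and 4970 to 6280 in control, and this was not tested as a part of the results either.

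In knockdown cells the replication genes were lower as a body. Of the 47 genes 31 fell against control (limma, adjusted p under 0.05) and 0 rose, while 7.44% of all genes tested fell and 5.35% rose. The median log2 change of the 47 was -0.53, with 0.01 for all genes tested, and single changes ran from -1.32 to 0.33. Both knockdown libraries lay below both control libraries in 43 of the 47 genes and above them in 0, which held for 31.4% and 32.7% of all genes. In bulk RNA a smaller share of cells in S phase and less of these transcripts per cell cannot be told apart. With no filter on low values 22 genes fell (2.42% of all genes tested did), and after quantile normalization 27 did (6.54%). The count of 31 fell when any 1 library of control or knockdown was left out, and most without a knockdown library. The count over all genes tested fell in these fits too. The median of the 47 stayed between -0.54 and -0.47 over all settings tried. Of the called genes whose library values are given here, RFC3, RPA1 and CDCA7 kept their call in all 14 settings tried.

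**Figure D1:**
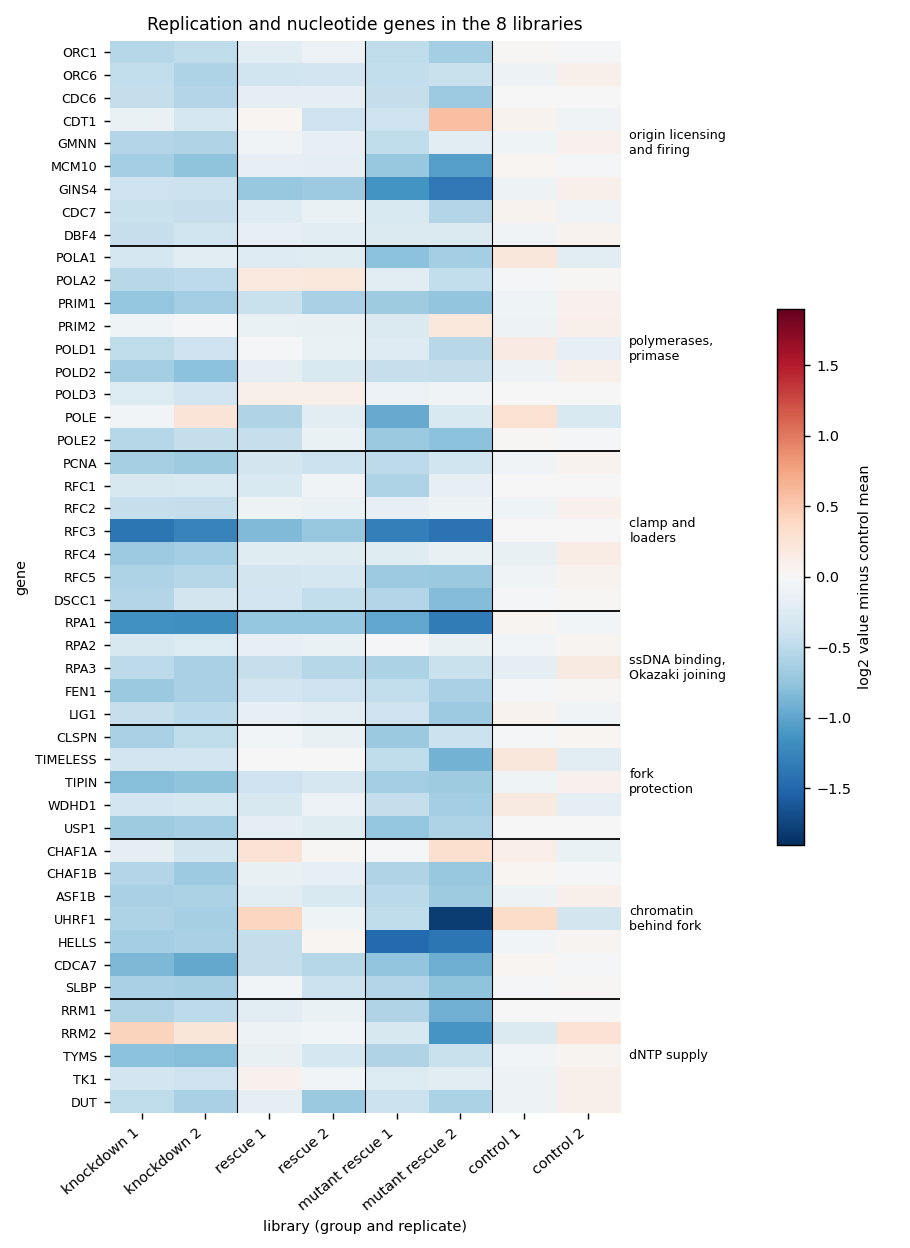
Log2 value of each of the 47 genes (rows, grouped by role) in each of the 8 libraries (columns), minus the mean of the 2 control libraries, with blue for lower and red for higher. Relative to the control mean the median gene stood at -0.54 and -0.51 in the knockdown libraries, -0.19 and -0.20 in rescue, and -0.48 and -0.62 in mutant rescue.

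The clamp and its loaders held the largest decrease. RFC3, a small subunit of the clamp loader, had log2 values of 9.95 and 10.05 in knockdown, 10.48 and 10.59 in rescue, 10.02 and 9.92 in mutant rescue, and 11.31 and 11.33 in control. On the scale of the library values, which mostly give smaller changes than the authors' fold changes, its level fell 2.49-fold in knockdown against control, a log2 change of -1.32 (SE 0.09, adjusted p = 0.00048), with rescue between knockdown and control and mutant rescue at the level of knockdown. PCNA, the sliding clamp, had 11.06 and 11.02 in knockdown, 11.34 and 11.29 in rescue, 11.20 and 11.31 in mutant rescue, and 11.63 and 11.75 in control. PCNA fell by 0.65 on the log2 scale (SE 0.09, adjusted p = 0.00436), and no other library reached the control libraries. RFC5, another small loader subunit, had 10.15 and 10.19 in knockdown, 10.39 and 10.40 in rescue, 10.05 and 10.03 in mutant rescue, and 10.67 and 10.80 in control, a change of -0.57 in knockdown (adjusted p = 0.00706). RFC4 (-0.67, adjusted p = 0.00874) and RFC2 (-0.44, adjusted p = 0.0195) fell as well. The large subunit RFC1 (-0.30, adjusted p = 0.219) and DSCC1, part of an alternative loader (-0.45, adjusted p = 0.063), did not pass, so 5 of 7 genes of this role fell. The call of PCNA was lost without knockdown replicate 1 (adjusted p = 0.0639) and without knockdown replicate 2 (adjusted p = 0.0755), as were those of RFC4 (adjusted p = 0.0984 and 0.0859) and RFC5 (adjusted p = 0.0991 and 0.0849).

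Among the proteins on single-stranded DNA and at Okazaki fragments, 4 of 5 genes fell. RPA1, the large subunit of replication protein A, had log2 values of 10.79 and 10.78 in knockdown, 11.21 and 11.20 in rescue, 10.96 and 10.62 in mutant rescue, and 11.99 and 11.90 in control. It fell 2.23-fold in knockdown (-1.16, SE 0.12, adjusted p = 0.00134), and the control libraries stood clear above all 6 others. FEN1, the nuclease that trims Okazaki fragments, had 10.58 and 10.67 in knockdown, 10.93 and 10.89 in rescue, 10.81 and 10.67 in mutant rescue, and 11.26 and 11.31 in control, and fell by 0.66 in knockdown (SE 0.09, adjusted p = 0.00423). RPA3 (-0.55, adjusted p = 0.0315) and the DNA ligase gene LIG1 (-0.47, adjusted p = 0.0308) fell too. RPA2, the middle subunit, had 11.61 and 11.66 in knockdown, 11.77 and 11.79 in rescue, 11.88 and 11.78 in mutant rescue, and 11.86 and 11.97 in control. Its difference of -0.28 (SE 0.09) in knockdown did not pass (adjusted p = 0.0718). The 3 subunits of 1 complex thus had log2 changes of -1.16, -0.28 and -0.55, and the differences between them were not tested. The FEN1 call was lost without knockdown replicate 1 (adjusted p = 0.0742) and without knockdown replicate 2 (adjusted p = 0.0537).

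Of the 9 genes for origin licensing and firing 7 fell, with a median of -0.50. MCM10, which activates the helicase and recruits polymerase alpha, had log2 values of 10.02 and 9.91 in knockdown, 10.51 and 10.49 in rescue, 9.95 and 9.63 in mutant rescue, and 10.71 and 10.63 in control, a decrease in knockdown of 0.70 (SE 0.12, adjusted p = 0.00925). GMNN encodes geminin, the inhibitor of CDT1. It had 10.49 and 10.47 in knockdown, 10.98 and 10.89 in rescue, 10.57 and 10.85 in mutant rescue, and 10.96 and 11.14 in control, and fell by 0.57 (SE 0.11, adjusted p = 0.0171). The origin recognition genes ORC1 and ORC6, the licensing factor CDC6, the kinase activator DBF4 and the helicase subunit gene GINS4 fell by 0.40 to 0.53. CDT1 (-0.23, adjusted p = 0.638) and CDC7 (-0.43, adjusted p = 0.0531) did not pass. The GINS4 call (-0.40, adjusted p = 0.046) lay close to the threshold, and it was lost without filter (adjusted p = 0.0896), after quantile normalization (adjusted p = 0.0656) and without any 1 library of control, knockdown or rescue (adjusted p from 0.0555 to 0.254). MCM10 lost its call without knockdown replicate 1 (adjusted p = 0.0744) and without knockdown replicate 2 (adjusted p = 0.112). GMNN lost it without these (adjusted p = 0.128 and 0.14) and without control replicate 2 (adjusted p = 0.103). In all 9 genes both knockdown libraries lay below both control libraries.

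The polymerases and primase had the lowest share of genes that fell, 4 of 9 (44.4%), with a median of -0.44. POLD2, a small subunit of polymerase delta, had log2 values of 11.76 and 11.64 in knockdown, 12.24 and 12.12 in rescue, 11.97 and 11.95 in mutant rescue, and 12.32 and 12.50 in control. It fell by 0.71 in knockdown (SE 0.10, adjusted p = 0.00446). PRIM1, the catalytic primase subunit, had 9.55 and 9.61 in knockdown, 9.85 and 9.66 in rescue, 9.59 and 9.53 in mutant rescue, and 10.19 and 10.36 in control, and fell by 0.70 (SE 0.11, adjusted p = 0.00631). POLA2, the second subunit of polymerase alpha, fell by 0.51 (adjusted p = 0.0215) and POLE2 by 0.50 (adjusted p = 0.0431). The catalytic subunits of the polymerases did not pass: POLA1 had -0.27 (SE 0.15, adjusted p = 0.288), POLD1 -0.44 (SE 0.13, adjusted p = 0.0679) and POLE 0.10 (SE 0.26, adjusted p = 0.844). The control libraries lay far apart in POLE (9.30 and 8.71) and POLA1 (8.78 and 8.35). By the authors' deposited adjusted p-values POLD1 was lower in knockdown (-0.58, adjusted p = 0.00215). A difference between catalytic and other subunits was not tested. POLD3 (-0.31, adjusted p = 0.0511) and PRIM2, the partner of PRIM1 (-0.06, adjusted p = 0.861), did not pass either. The knockdown and control libraries overlapped in POLA1, PRIM2 and POLE. Leaving out knockdown replicate 2 ended the calls of POLD2 (adjusted p = 0.0791) and PRIM1 (adjusted p = 0.0695), and leaving out knockdown replicate 1 that of PRIM1 (adjusted p = 0.0885). The POLA2 call was lost without any 1 library of control or knockdown (adjusted p from 0.0654 to 0.161).

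Fork protection genes fell in 3 of 5 cases. USP1, the deubiquitinase that acts on PCNA, had log2 values of 9.99 and 10.02 in knockdown, 10.49 and 10.43 in rescue, 9.92 and 10.08 in mutant rescue, and 10.65 and 10.67 in control, a decrease in knockdown of 0.66 (SE 0.09, adjusted p = 0.00447). CLSPN encodes claspin, which couples stalled forks to the checkpoint kinase. It had 9.68 and 9.81 in knockdown, 10.24 and 10.16 in rescue, 9.59 and 9.89 in mutant rescue, and 10.26 and 10.34 in control, and fell by 0.55 (adjusted p = 0.0215). TIPIN fell by 0.78 (adjusted p = 0.00465), whereas its partner TIMELESS had 10.76 and 10.75 in knockdown, 11.13 and 11.11 in rescue, 10.64 and 10.21 in mutant rescue, and 11.34 and 10.90 in control. The control libraries of TIMELESS lay far apart, and its change of -0.36 (SE 0.17) did not pass (adjusted p = 0.197). WDHD1, which links polymerase alpha to the helicase, had -0.35 (adjusted p = 0.138). The call of USP1 was lost without knockdown replicate 1 (adjusted p = 0.0722) and without knockdown replicate 2 (adjusted p = 0.0662), and that of CLSPN without any 1 library of control or knockdown (adjusted p from 0.0621 to 0.181) and without filter (adjusted p = 0.0511).

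Chromatin genes that act behind the fork fell in 5 of 7 cases, with a median of -0.62. CDCA7, the activating partner of the chromatin remodeler HELLS, had log2 values of 10.15 and 10.04 in knockdown, 10.55 and 10.46 in rescue, 10.26 and 10.08 in mutant rescue, and 11.04 and 10.98 in control. It fell 1.88-fold in knockdown (-0.91, SE 0.10, adjusted p = 0.00178). SLBP, which binds the stem-loop of replication-dependent histone mRNA, had 11.95 and 11.93 in knockdown, 12.51 and 12.16 in rescue, 12.01 and 11.81 in mutant rescue, and 12.55 and 12.59 in control, and fell by 0.62 (SE 0.13, adjusted p = 0.0182). CHAF1B, a subunit of the chromatin assembly factor CAF-1, had 9.09 and 8.96 in knockdown, 9.52 and 9.50 in rescue, 9.08 and 8.94 in mutant rescue, and 9.69 and 9.61 in control, and fell by 0.62 (SE 0.10, adjusted p = 0.00839). The histone chaperone gene ASF1B (-0.61, adjusted p = 0.0093) and HELLS (-0.63, adjusted p = 0.0281) fell, while CHAF1A, the large CAF-1 subunit (-0.26, adjusted p = 0.333), and UHRF1 (-0.61, SE 0.39, adjusted p = 0.342) did not pass. UHRF1, which guides maintenance DNA methylation, had replicates as far apart as 10.82 and 9.50 in mutant rescue and 11.65 and 10.95 in control. CHAF1B lost its call without knockdown replicate 1 (adjusted p = 0.0697) and without knockdown replicate 2 (adjusted p = 0.115). HELLS and SLBP lost theirs without any 1 library of control or knockdown (adjusted p from 0.0806 to 0.173 for HELLS and from 0.0624 to 0.142 for SLBP), and HELLS also without filter (adjusted p = 0.0619) and after quantile normalization (adjusted p = 0.0607).

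In deoxynucleotide supply 3 of 5 genes fell. TYMS, thymidylate synthase, had log2 values of 11.27 and 11.24 in knockdown, 11.90 and 11.71 in rescue, 11.48 and 11.62 in mutant rescue, and 11.99 and 12.10 in control. It fell 1.73-fold in knockdown (-0.79, SE 0.10, adjusted p = 0.00329). RRM1 and RRM2 encode the large and the small subunit of ribonucleotide reductase. RRM1 had 11.40 and 11.47 in knockdown, 11.75 and 11.85 in rescue, 11.40 and 11.06 in mutant rescue, and 11.96 and 11.98 in control, and fell by 0.54 (SE 0.12, adjusted p = 0.0221). RRM2 had 10.60 and 10.41 in knockdown, 10.09 and 10.13 in rescue, 9.87 and 9.06 in mutant rescue, and 9.90 and 10.46 in control. The knockdown and control libraries of RRM2 overlapped, and its log2 change of 0.33 had a 95% interval of -0.26 to 0.91 (SE 0.26, adjusted p = 0.439). TK1, thymidine kinase, fell by 0.38 (adjusted p = 0.0398), and DUT, which removes dUTP, had -0.55 (adjusted p = 0.0671). The TYMS call was lost without knockdown replicate 1 (adjusted p = 0.0501) and without knockdown replicate 2 (adjusted p = 0.0569), and that of RRM1 without any 1 library of control or knockdown (adjusted p from 0.0748 to 0.175), without filter (adjusted p = 0.0518) and after quantile normalization (adjusted p = 0.0568).

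The promoter words were also counted by the result in knockdown. An E2F word was found in 10 of 29 promoters of genes that fell in knockdown (34.5%) and in 4 of 13 of those that were not called (30.8%). CCAAT boxes were found in 51.7% and 53.8% of these promoters.

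**Figure D2:**
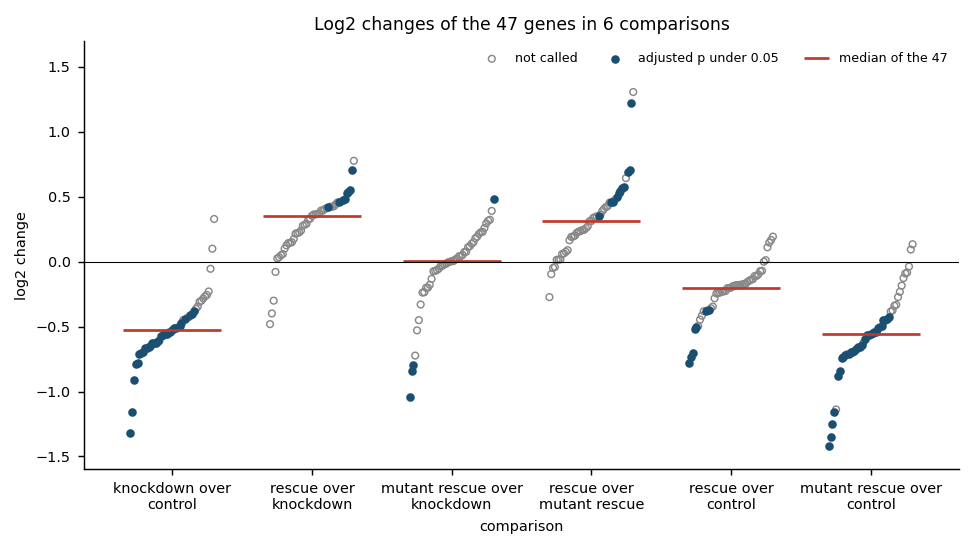
Log2 change of the 47 genes (1 point each, sorted within each comparison) in 6 comparisons, with filled points for adjusted p under 0.05, open points for the rest and a red line for the median. The points lie mostly below 0 for knockdown over control (median -0.53) and mutant rescue over control (median -0.56), around 0 for mutant rescue over knockdown (median 0.00), and mostly above 0 for rescue over knockdown (median 0.35).

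With IGF2BP2 given back, 8 of the 47 genes rose against knockdown and 0 fell, against 3.22% of all genes that rose and 1.02% that fell. The median log2 change was 0.35, with 0.00 for all genes tested, and both rescue libraries lay above both knockdown libraries in 37 genes and below them in 4, as they did in 31.3% and 26.9% of all genes. POLA2 rose most clearly: it had log2 values of 8.92 and 8.94 in knockdown, 9.63 and 9.65 in rescue, 9.24 and 8.98 in mutant rescue, and 9.42 and 9.47 in control. Its change in rescue over knockdown was 0.70 (SE 0.11, adjusted p = 0.00934), and the rescue libraries lay above those of every other group. RFC3 rose by 0.54 (SE 0.09, adjusted p = 0.0153) and TYMS by 0.55 (SE 0.10, adjusted p = 0.0219). POLD3, an accessory subunit of polymerase delta, had 10.35 and 10.24 in knockdown, 10.71 and 10.71 in rescue, 10.50 and 10.54 in mutant rescue, and 10.59 and 10.61 in control, and rose by 0.42 (adjusted p = 0.0335). USP1 (0.46, adjusted p = 0.0317), POLD2 (0.48, adjusted p = 0.0354), CHAF1B (0.48, adjusted p = 0.0401) and MCM10 (0.53, adjusted p = 0.0471) rose as well. Genes that did not pass ranged from POLE (-0.48, adjusted p = 0.366) and RRM2 (-0.40, adjusted p = 0.442) to UHRF1 (0.78, SE 0.39, adjusted p = 0.319). This comparison shares the knockdown libraries with that of knockdown against control. The count of 8 fell when any 1 library of control, knockdown or rescue was left out, and most without a knockdown library. It rose without either mutant rescue library. The count of higher genes over all genes tested moved the same way. The count of 8 became 2 with no filter on low values (1.24% of all genes tested) and 2 after quantile normalization (2.52%). In a fit of these 2 groups alone it became 23 (6.64%). POLA2 and RFC3 kept their call without filter and after quantile normalization, but POLA2 lost it without any 1 library of knockdown or rescue (adjusted p from 0.0674 to 0.12), and so did RFC3 (adjusted p from 0.0634 to 0.207).

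Few of the 47 genes passed the test between mutant rescue and knockdown. In mutant rescue 3 genes fell against knockdown (5.73% of all genes did) and 1 rose (5.58% of all genes did), and the median change was 0.00, with 0.05 for all genes tested. Both mutant rescue libraries lay below both knockdown libraries in 9 genes and above them in 14, as in 25.9% and 37.1% of all genes. GINS4, a subunit of the GINS complex of the helicase, had log2 values of 10.23 and 10.21 in knockdown, 9.90 and 9.93 in rescue, 9.48 and 9.27 in mutant rescue, and 10.52 and 10.72 in control. It fell by 0.84 in mutant rescue against knockdown (SE 0.11, adjusted p = 0.00565), and no 2 groups overlapped. HELLS had 12.02 and 12.05 in knockdown, 12.22 and 12.71 in rescue, 11.19 and 11.30 in mutant rescue, and 12.62 and 12.71 in control, and fell by 0.79 (SE 0.15, adjusted p = 0.0197). Its mutant rescue libraries lay below all others, and of its rescue libraries only replicate 2 lay in the control range. RRM2 fell by 1.04 (SE 0.26, adjusted p = 0.0406), with mutant rescue replicate 2 far below replicate 1. RFC4 had 9.94 and 9.98 in knockdown, 10.40 and 10.40 in rescue, 10.40 and 10.48 in mutant rescue, and 10.48 and 10.77 in control, and rose by 0.48 (SE 0.11, adjusted p = 0.035). Both rescue groups of RFC4 stood above knockdown, although the change of 0.44 in rescue did not pass (adjusted p = 0.0682).

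These 4 calls changed with single libraries. The count of 3 lower genes fell without knockdown replicate 1 and without knockdown replicate 2, and it rose without mutant rescue replicate 1. The count over all genes tested moved the same way. Without these knockdown libraries the changes were -0.83 and -0.85 in GINS4 and -0.80 and -0.78 in HELLS, close to those in all libraries. RRM2 had -0.64 without mutant rescue replicate 2 (adjusted p = 0.114) and -1.44 without mutant rescue replicate 1, and its call was also lost without rescue replicate 1 (adjusted p = 0.0572) and without rescue replicate 2 (adjusted p = 0.0568), without filter (adjusted p = 0.0849) and in a fit of these 2 groups alone (adjusted p = 0.0826). RFC4 lost its call without any 1 library of knockdown or rescue and without mutant rescue replicate 2, with adjusted p from 0.053 to 0.211, which left 0 genes higher. Without mutant rescue replicate 1 the count of higher genes rose, as it did over all genes tested. The RFC4 call was lost as well without filter (adjusted p = 0.0694), after quantile normalization (adjusted p = 0.0868) and in a fit of these 2 groups alone (adjusted p = 0.0602).

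**Figure D3:**
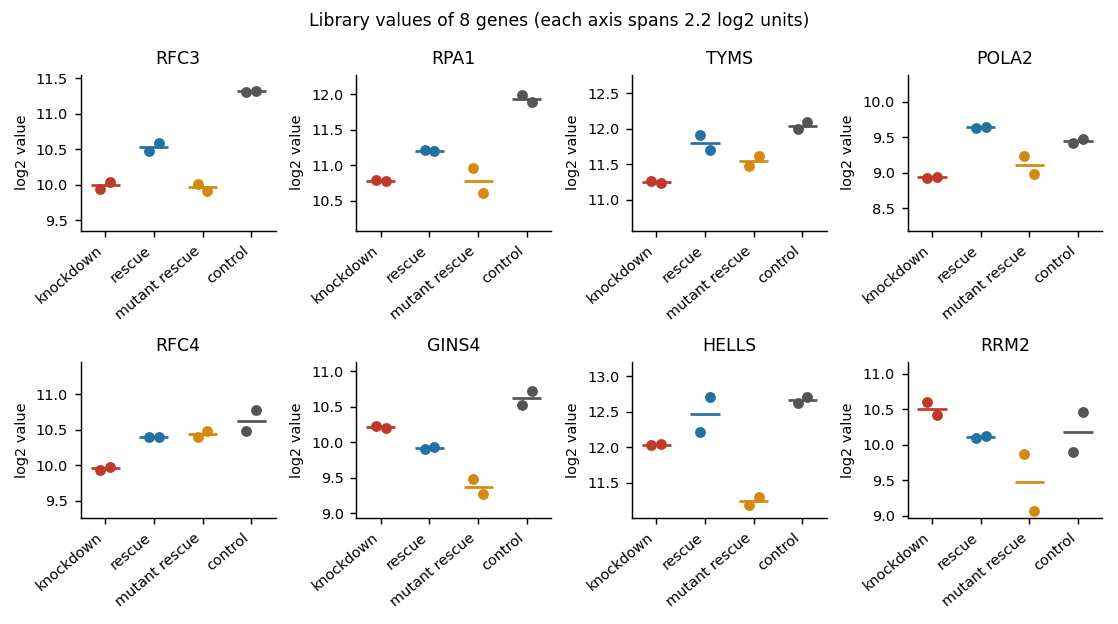
Log2 values of 8 genes in the 2 libraries of each group (points) with the group mean (line), on axes that each span 2.2 log2 units. RFC3 and RPA1 are lowest in knockdown and mutant rescue, RFC4 is lowest in knockdown alone, and GINS4, HELLS and RRM2 have their lowest libraries in mutant rescue.

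The direct comparison of the rescue groups, rescue against mutant rescue, had 11 genes higher and 0 lower, against 5.90% of all genes higher and 4.61% lower. The median was 0.31, with -0.02 for all genes tested, and in 36 genes both rescue libraries lay above both mutant rescue libraries and in 0 below them, as in 27.7% and 30.2% of all genes. HELLS was 2.33-fold higher in rescue, a log2 change of 1.22 (SE 0.15, adjusted p = 0.00256). RFC3 was higher by 0.57 (SE 0.09, adjusted p = 0.00941), MCM10 by 0.71 (SE 0.12, adjusted p = 0.0108), GINS4 by 0.54 (adjusted p = 0.0208) and USP1 by 0.46 (adjusted p = 0.0209). CHAF1B (0.50, adjusted p = 0.0227), RRM1 (0.57, adjusted p = 0.0227), POLA2 (0.52, adjusted p = 0.0239), TIMELESS (0.69, adjusted p = 0.0383), RFC5 (0.35, adjusted p = 0.0423) and CLSPN (0.46, adjusted p = 0.0452) were the others. Fork protection had 3 of 5 genes higher, and single-strand binding 0 of 5. UHRF1 had the widest change of the 47, 1.31, but with an SE of 0.39 it did not pass (adjusted p = 0.0655). PCNA (0.06, adjusted p = 0.664), RFC4 (-0.04, adjusted p = 0.824) and RFC2 (0.02, adjusted p = 0.922) did not pass, and their rescue and mutant rescue libraries overlapped. IGF2BP2 itself differed by 0.39 between these groups (SE 0.13, adjusted p = 0.0839), which did not pass.

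The HELLS call in this comparison held in all 14 settings. The count of 11 fell without any 1 library of control, knockdown or rescue and without mutant rescue replicate 2. It rose without mutant rescue replicate 1. The count of higher genes over all genes tested moved the same way in each case. Without mutant rescue replicate 1 there was also 1 gene lower. The count of higher genes was 7 with no filter on low values (1.96% of all genes tested) and 1 in a fit of these 2 groups alone (1.13%). This comparison shares no library with that of knockdown against control, although both use 1 estimate of the spread. Of the 11 genes higher in rescue than in mutant rescue, 10 (90.9%) were also among the 31 that fell in knockdown against control, which is 32.3% of those 31, and the other was TIMELESS. Of the 47 genes 66% fell in knockdown.

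Compared with control, 7 genes were lower in rescue and 0 were higher, against 2.27% and 4.91% of all genes tested. They were RFC3 (-0.78, SE 0.09, adjusted p = 0.00144), GINS4 (-0.71, SE 0.11, adjusted p = 0.00613), RPA1 (-0.73, SE 0.12, adjusted p = 0.00724), CDCA7 (-0.50, adjusted p = 0.0212), PRIM1 (-0.52, adjusted p = 0.0232), FEN1 (-0.38, adjusted p = 0.0443) and PCNA (-0.38, adjusted p = 0.0452). The median of the 47 was -0.20, with -0.01 for all genes, and both rescue libraries lay below both control libraries in 34 genes, as in 26.0% of all genes. Both rescue libraries lay above control in 2 genes, as in 26.1% of all: POLA2 (0.19, adjusted p = 0.362) and POLD3 (0.11, adjusted p = 0.524), neither of which passed. GINS4 differed from the rest of the called genes in that rescue lay below knockdown too, by -0.30 (adjusted p = 0.177), which did not pass. The count of 7 fell when any 1 library of control, knockdown or rescue was left out, and so did the count over all genes tested. The count of 7 became 3 with no filter on low values (0.553% of all genes tested) and 4 in a fit of these 2 groups alone (1.4%). The RFC3 call held in all 14 settings tried, with changes of -0.83 to -0.72. Of these 14 settings, GINS4 lost its call in 1 and RPA1 in 2. PRIM1 lost it in 6, CDCA7 in 7, and FEN1 and PCNA in 9 each.

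Mutant rescue against control had 30 genes lower and 0 higher, against 11.0% and 13.9% of all genes tested. The median was -0.56, with 0.01 for all genes, and 41 genes had both mutant rescue libraries below both control libraries and 0 had them above, as in 31.0% and 31.5% of all genes. The largest decreases were in HELLS (-1.42, SE 0.15, adjusted p = 0.000515), RFC3 (-1.35, SE 0.09, adjusted p = 8.17e-05), GINS4 (-1.25, SE 0.11, adjusted p = 0.000218) and RPA1 (-1.15, SE 0.12, adjusted p = 0.000466). CDCA7 (-0.84, adjusted p = 0.00104) and RFC5 (-0.70, adjusted p = 0.00139) followed by adjusted p. All 5 fork protection genes fell in the fit of all libraries, by 0.55 to 0.69. Among genes not called in knockdown, CDC7 (-0.42, adjusted p = 0.0358), POLA1 (-0.72, adjusted p = 0.0118), DSCC1 (-0.69, adjusted p = 0.00861), TIMELESS (-0.69, adjusted p = 0.0201) and WDHD1 (-0.55, adjusted p = 0.0225) fell here. Mutant rescue against control and knockdown against control share the control libraries. In a fit of mutant rescue and control alone 21 genes were lower (5.59% of all genes tested were), and after quantile normalization 37 were (14%). The count of 30 lay between 23 and 33 when any 1 library was left out. TIMELESS lost its call without control replicate 1 (adjusted p = 0.119), without mutant rescue replicate 2 (adjusted p = 0.0821), without filter (adjusted p = 0.0543) and in a fit of these 2 groups alone (adjusted p = 0.0547), and CLSPN lost its call without control replicate 2 (adjusted p = 0.063).

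The difference between the control replicates went with transcript length, and that between the replicates of the other groups did so less or hardly. Across the 47 genes, the difference of replicate 2 minus replicate 1 had a Pearson correlation with log10 of the longest GENCODE transcript of 0.09 in knockdown, 0.30 in rescue, -0.10 in mutant rescue and -0.60 in control, with 0.13, 0.23, -0.00 and -0.38 in that order over 12117 genes with a length. Mutant rescue, with the widest spread between replicates (SD of the difference 0.353 over the 47 genes), had almost no such relation. Longer transcripts tended to be lower in control replicate 2 than in control replicate 1, as in POLE at 9.30 and 8.71 and in TIMELESS at 11.34 and 10.90. Not every long transcript was: HELLS had 12.62 and 12.71, and CLSPN 10.26 and 10.34. The log2 change itself correlated with length across the 47 genes at 0.28 in knockdown against control, -0.54 in mutant rescue against knockdown and 0.46 in rescue against mutant rescue, with 0.20, -0.28 and 0.17 over all genes. These correlations are across genes that share the same libraries and are given as descriptions. With the length trend of each library removed, a setting chosen after seeing the data, 32 genes were lower in knockdown than in control, 12 higher in rescue than in knockdown, 21 higher in rescue than in mutant rescue, and 3 lower and 0 higher in mutant rescue than in knockdown. Of all genes with a length 8.48%, 4.04%, 6.88%, 4.24% and 2.98% were called in that order. The part of transcript length in the single results was not tested further.

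**Figure D4:**
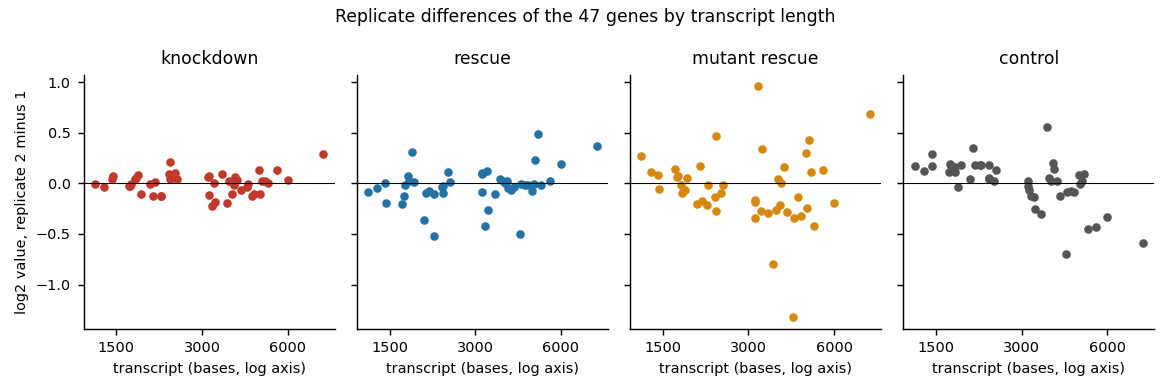
Difference in log2 value between replicate 2 and replicate 1 for each of the 47 genes, against the length of its longest annotated transcript in bases (log axis), for the 4 groups. In control the points fall with length (Pearson r = -0.60), in knockdown they lie close to 0, and mutant rescue has the widest spread, with UHRF1 at -1.32.

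Replication genes outside the 47, MCM2-7 included, were taken from a list of 41. Of these 12 fell in knockdown against control and 0 rose, where 7.44% and 5.35% of all genes tested did. The median of the 41 was -0.30. The genes that fell were led by GINS2 (-1.24, adjusted p = 0.000906), RMI1, a partner of the BLM helicase (-1.33, adjusted p = 0.00161), MCM7 (-0.60, adjusted p = 0.0044) and MCM6 (-0.67, adjusted p = 0.00599). In rescue against mutant rescue 11 of the 41 were higher and 1 lower, where 5.90% and 4.61% of all genes tested were. The lower gene was POLD4, the smallest polymerase delta subunit (-0.57, adjusted p = 0.0256). GINS2, like its partner GINS4, was lower in rescue than in control (-0.76, adjusted p = 0.0038).

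Of 33 further nucleotide supply genes 12 fell in knockdown against control and 1 rose, where 7.44% and 5.35% of all genes tested did. The median of the 33 was -0.35. DTYMK, the kinase that follows TYMS on the way to dTTP, had log2 values of 9.79 and 9.70 in knockdown, 10.30 and 10.25 in rescue, 9.95 and 10.27 in mutant rescue, and 10.88 and 11.02 in control. It fell by 1.20 (adjusted p = 0.00127). UMPS (-0.78, adjusted p = 0.00179) and PAICS (-0.68, adjusted p = 0.00312), enzymes of pyrimidine and purine synthesis, fell as well. The gene that rose was SAMHD1, which breaks down deoxynucleotide triphosphates. It had 9.85 and 9.70 in knockdown, 9.93 and 9.73 in rescue, 9.59 and 8.85 in mutant rescue, and 8.98 and 8.09 in control, a change of 1.24 in knockdown (SE 0.30, adjusted p = 0.0315) and of 1.30 in rescue (adjusted p = 0.038) against control. Its change of 0.06 in rescue against knockdown did not pass (adjusted p = 0.942). RRM2B, the p53-induced reductase subunit, had a change of -0.56 in knockdown that did not pass (adjusted p = 0.0606). In mutant rescue against knockdown CTPS1, the CTP synthase, fell by 0.80 (adjusted p = 0.00731).

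By the adjusted p-values in the authors' deposited table, 40 of the 47 genes were lower in knockdown than in control and 0 higher, where 7.60% of all its genes were lower. In rescue against knockdown the authors' deposited table had 22 genes higher, where 4.0% of all were, and 1 lower, RRM2 (log2 change -0.50, adjusted p = 0.015), where 1.75% of all were. In mutant rescue against knockdown the authors' deposited table had 4 genes lower and 1 higher, where 2.00% and 2.48% of all were. The authors' deposited table had 6 genes higher in rescue than in mutant rescue (2.23% of all), 6 lower in rescue than in control (1.67% of all) and 26 lower in mutant rescue than in control (3.43% of all). All 31 genes that fell in knockdown by limma and all 8 that rose in rescue against knockdown were also called in the authors' deposited table. So were all 4 called in mutant rescue against knockdown. In rescue against mutant rescue only 6 of the 11 limma calls were shared. The shared calls were 5 of 7 in rescue against control and 25 of 30 in mutant rescue against control. The median log2 change of the 47 genes in knockdown was -0.74 in the authors' deposited table, against -0.53 from the library values, and the authors' changes were mostly larger, for abundant genes too. For RFC3 the authors' deposited table gave -1.66 in knockdown (adjusted p = 6.79e-28) and for RPA1 -1.44, against -1.32 and -1.16 from the library values, and for HELLS 1.49 in rescue over mutant rescue (adjusted p = 5.71e-08). Both sets of calls come from the same libraries.

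Counting could mix some of these transcripts with others. By the GENCODE annotation 15 of the 47 genes share exon bases with a gene on the opposite strand, such as TYMS with ENOSF1, RPA1 with SMYD4, RFC4 with EIF4A2 and FEN1 with TMEM258, and the labels do not say that strand was used in counting. Named pseudogenes exist for 10 of the 47, with 8 for DUT and 3 each for PCNA, RPA2 and RRM2, and the values of these genes are uncertain to that extent.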

How the data were processed

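Poly(A) RNA sequencing of MOLM13 cells was used as 1 table of 8 libraries. Groups and replicate numbers came from the sample titles. Per the file headers the table was written by HOMER's getDiffExpression.pl, and its library columns are deposited as log2 values, normalized by the authors over all 8 libraries. Low genes have values drawn together, and changes from the library values are mostly smaller than the authors' fold changes, for abundant genes too. The log2 fold changes and the p-values of the authors are deposited beside them, with no statement of the model used. Tools named in the submitters' processing notes, without role or version, are Trim Galore, kallisto and HOMER, with the build GRCh38. Depth is unknown, since no counts were used, and precision is that of 2 libraries a group.

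The members and gene lists were chosen with earlier results of these data known. A gene was tested if its linear value reached 1 ppm of the summed linear values in 2 or more libraries, which left 13030 genes. 1 row without a symbol was left out of the listed genes. limma 3.58.1 (R 4.3.3, mean trend, no pseudocount) was fitted to the deposited values with 1 mean per group and 4 residual degrees of freedom. P-values were adjusted by Benjamini-Hochberg over all genes tested, and an adjusted p under 0.05 was called. Fold sizes are powers of these log2 changes. The procedure was tested on simulated data. Values in every library are given for the 6 called genes with the smallest adjusted p in each comparison, the highest gene of each role and genes called in opposite directions. From the lists of other genes, called ones with the smallest adjusted p are named, and a gene this would name is not reported here. Lengths and positions came from GENCODE 29 and promoters from RefSeq (GRCh38.p14).

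Alternatives were no filter, a filter at 5 ppm, quantile normalization, a fit of the 2 groups alone, a replicate block, each library left out, and, added after seeing the data, removal of a length trend.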

Additional observations from a re-analysis of the deposited data

How the results depend on the processing

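No call on a named gene changed direction under any of the 14 alternative settings, and the median change of the 47 genes stayed below 0 in all settings for knockdown, rescue and mutant rescue against control. With no filter on low values 22 genes were lower in knockdown and 26 in mutant rescue than in control. Without filter 2 genes were higher in rescue than in knockdown and 0 higher in mutant rescue than in knockdown. There were 7 higher in rescue than in mutant rescue and 3 lower in rescue than in control. After quantile normalization 27 genes were lower in knockdown and 37 in mutant rescue than in control. In that setting 2 genes were higher in rescue than in knockdown and 0 higher in mutant rescue than in knockdown. In fits of the 2 groups alone 36 genes were lower in knockdown and 21 in mutant rescue than in control. Such fits had 23 genes higher and 2 lower in rescue than in knockdown, and 0 higher in mutant rescue than in knockdown. They had 1 gene higher in rescue than in mutant rescue and 4 lower in rescue than in control. With the transcript length trend removed, a setting chosen after seeing the data, 21 genes were higher in rescue than in mutant rescue and 0 higher in mutant rescue than in knockdown. The cause of these shifts was not tested.

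With 1 library left out, where a group of 1 is assumed to vary like the others, the count of genes lower in knockdown than in control ran from 3 to 36. Genes higher in rescue than in knockdown ran from 0 to 13. In mutant rescue against knockdown the counts ran from 0 to 5 lower and from 0 to 3 higher. In rescue against mutant rescue they ran from 1 to 19 higher and from 0 to 1 lower, and genes lower in rescue than in control from 2 to 9.

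Deviations of libraries with the same replicate number correlated at -0.02 to 0.41 over the 6 pairs of groups, highest for knockdown with rescue. The main fit had no replicate block because the labels do not say that the numbers pair the libraries. These correlations do not settle whether they do. With the replicate block 32 genes were lower in knockdown than in control, 9 higher in rescue than in knockdown, 3 lower and 1 higher in mutant rescue than in knockdown, 16 higher in rescue than in mutant rescue, 5 lower in rescue than in control and 33 lower in mutant rescue than in control. Of all genes tested 7.68%, 3.33%, 6.55%, 7.31%, 6.91%, 2.39% and 11.8% were called in that order. Under the block the calls of GINS4 in knockdown against control (adjusted p = 0.0522) and of FEN1 and PCNA in rescue against control (adjusted p = 0.0531 and 0.0523) were lost. With 2 libraries a group and no known depth, small changes are not detectable.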
